A study of Mus musculus with 26 samples.

Results

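The genes described here are 42 genes of the G1/S transition and of DNA replication, taken by symbol from the 3 count tables (in capitals in the human table). All 42 were found in each table, among 40481 genes in the mouse spheroid and crypt tables and 55093 genes in the Caco-2 table, and all 42 passed the filter on low counts in every comparison. The study removed or lowered Fgfr1op, which encodes a centrosomal protein, in intestinal epithelium, and measured RNA by sequencing. Spheroids are epithelial cultures grown from mouse small intestine in Matrigel. They were Fgfr1op KO or WT, both after 250 nM hydroxytamoxifen, the drug that induces the ablation, and were taken on day 3 (4 KO and 4 WT, each from its own mouse). Crypt-enriched fractions of small intestine came from Fgfr1op KO and WT mice after tamoxifen, on days 6 and 9 (6 KO and 6 WT libraries, from 3 mice per genotype and day). The crypt columns show the genotype but not the day, so both days were pooled within each genotype. Caco-2 is a line from a human colorectal adenocarcinoma that can take on features of enterocytes. It carried a lentiviral, doxycycline-inducible hairpin, either shFgfr1op or a non-targeting scramble hairpin, and was sampled on day 3 after doxycycline (3 shFgfr1op and 3 scramble). The age and strain of the mice and the promoter that drives the recombinase are not given in the sources used here. Whether the Caco-2 samples were grown as separate cultures is not stated, so the p-values for Caco-2 reflect the spread among 3 samples per group, and that spread may be technical.

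A cell prepares for S phase in G1. The origin recognition complex, Cdc6 and Cdt1 load the Mcm2 to Mcm7 helicase on DNA, and Cdc45 and the GINS complex then turn it on at the G1/S transition. Primase with polymerase alpha starts each new strand, the clamp loader (Rfc proteins) places the Pcna clamp, and polymerases delta and epsilon copy the DNA. E2F transcription factors, released from the retinoblastoma protein by cyclin-dependent kinases, induce many of these genes late in G1. In the small intestine, stem cells and transit-amplifying cells of the crypt divide, and most cells of the villus do not.

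Because the genes are known E2F targets as a class, the promoters of 5 of them are shown, up to the base before the transcription start. They are Mcm5, Mcm6 and Gins3, which hold letters of the E2F consensus, and Mcm2 and Pola2, which were higher in KO crypts and hold none in this window. Capitals mark matches to TTTCGCGC, TTTGGCGC, TTTCCCGC or TTTGCCGC on either strand. The sequences are RefSeq's on build GRCm38.p6, printed 5′ to 3′ along the gene.
Mcm5: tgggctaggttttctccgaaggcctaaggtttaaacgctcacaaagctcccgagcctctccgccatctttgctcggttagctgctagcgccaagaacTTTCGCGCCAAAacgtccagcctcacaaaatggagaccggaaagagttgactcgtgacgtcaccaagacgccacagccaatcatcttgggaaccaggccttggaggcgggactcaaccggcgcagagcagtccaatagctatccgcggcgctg
Mcm6: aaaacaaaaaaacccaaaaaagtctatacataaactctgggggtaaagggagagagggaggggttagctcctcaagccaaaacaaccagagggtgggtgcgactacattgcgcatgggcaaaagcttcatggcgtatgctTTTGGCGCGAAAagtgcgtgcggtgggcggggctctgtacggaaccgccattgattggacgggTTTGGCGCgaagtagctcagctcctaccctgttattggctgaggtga
Gins3: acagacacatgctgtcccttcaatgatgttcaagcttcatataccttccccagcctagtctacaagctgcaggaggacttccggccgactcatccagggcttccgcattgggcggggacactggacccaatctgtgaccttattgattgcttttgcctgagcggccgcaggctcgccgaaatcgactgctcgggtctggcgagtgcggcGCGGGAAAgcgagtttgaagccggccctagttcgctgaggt
Mcm2: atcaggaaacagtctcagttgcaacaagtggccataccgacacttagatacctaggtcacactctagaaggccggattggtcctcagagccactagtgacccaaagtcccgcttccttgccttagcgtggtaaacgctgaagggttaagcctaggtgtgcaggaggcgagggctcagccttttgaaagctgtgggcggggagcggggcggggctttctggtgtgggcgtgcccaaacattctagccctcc
Pola2: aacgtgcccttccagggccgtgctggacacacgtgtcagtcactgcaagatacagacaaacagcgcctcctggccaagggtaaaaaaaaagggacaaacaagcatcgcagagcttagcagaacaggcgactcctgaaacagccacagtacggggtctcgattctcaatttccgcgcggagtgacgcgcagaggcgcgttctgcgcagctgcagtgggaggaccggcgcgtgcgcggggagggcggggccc
Their positions are Mcm5, chr8:75109259-75109508 on the plus strand. The next is Mcm6, chr1:128359706-128359955 on the minus strand. The third is Gins3, chr8:95633309-95633558 on the plus strand. The others are Mcm2, chr6:88898781-88899030 on the minus strand, and Pola2, chr19:5964207-5964456 on the minus strand.

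In Mcm5, which encodes a helicase subunit, matches on opposite strands overlap, beginning 153 and 149 bases before the start. Mcm6, another helicase subunit, has such an overlapping pair at 110 and 106 bases before the start and a further match at 47 bases before it. Gins3, a GINS subunit, has a single match, 41 bases before the start. Promoters were found for 35 of the 42 genes. For each gene a single window was used, the first listed, so other start sites of a gene were not searched. In the window of 300 bases (250 before the start and 50 after it), 12 of the 35 held at least 1 of the E2F letters (34.3%). Of all 27025 genes with such a window, 626 held them (2.32%). The CCAAT box was in 22 of 35 (62.9%, against 37.9% of all promoters) and the GC box GGGCGG in 25 of 35 (71.4%, against 35.9%). The letters TTTGAA, which are part of a cell cycle element of G2/M genes, were in 4 of 35 (11.4%, against 18.1%). Of the 6 genes called higher in KO crypts, all with a promoter in the table, Cdt1 held the E2F letters, at position 33 counted from the start site, and the other 5 held none. A match is a match of letters and shows no binding.

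Total counts per library were 51459939 to 63981065 in KO and 44152608 to 67630241 in WT spheroids, 48068740 to 88869286 in KO and 49536700 to 103352863 in WT crypts, and 37281821 to 43876634 in shFgfr1op and 37989227 to 50965004 in scramble Caco-2. Levels are CPM, the counts of a gene scaled to a common library total after TMM normalization. A gene was called when its adjusted p was below 0.05 (edgeR's quasi-likelihood test with Benjamini-Hochberg adjustment over all genes tested), and fold changes are given as log2 ± standard error. Fgfr1op itself was 25.1% lower in KO than in WT spheroids (exact two-sided permutation p = 0.0286, the smallest possible, edgeR adjusted p = 0.117), with no overlap between the groups. It was 36.1% lower in KO than in WT crypts (exact two-sided permutation p = 0.00649, with 0.00216 the smallest possible, edgeR adjusted p = 0.0261), where the groups overlapped, so much of the transcript was still counted in KO. In Caco-2 it was 56.5% lower with shFgfr1op than with scramble (edgeR adjusted p = 1.65e-14, exact permutation p = 0.1, the smallest possible). Among the crypt libraries, 3 of the 6 KO libraries (numbers 4, 5 and 6 in the table) stood apart from the other 9 on the first principal component, at 102 to 124, against -64.4 to 5.16. Whether this is the day cannot be told apart from the files. Xist, which is transcribed in female cells, was near 0 in 1 KO and 1 WT crypt library, and it was high in only 1 spheroid library, WT 1, so sex is not balanced in the spheroids.

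**Figure D1:**
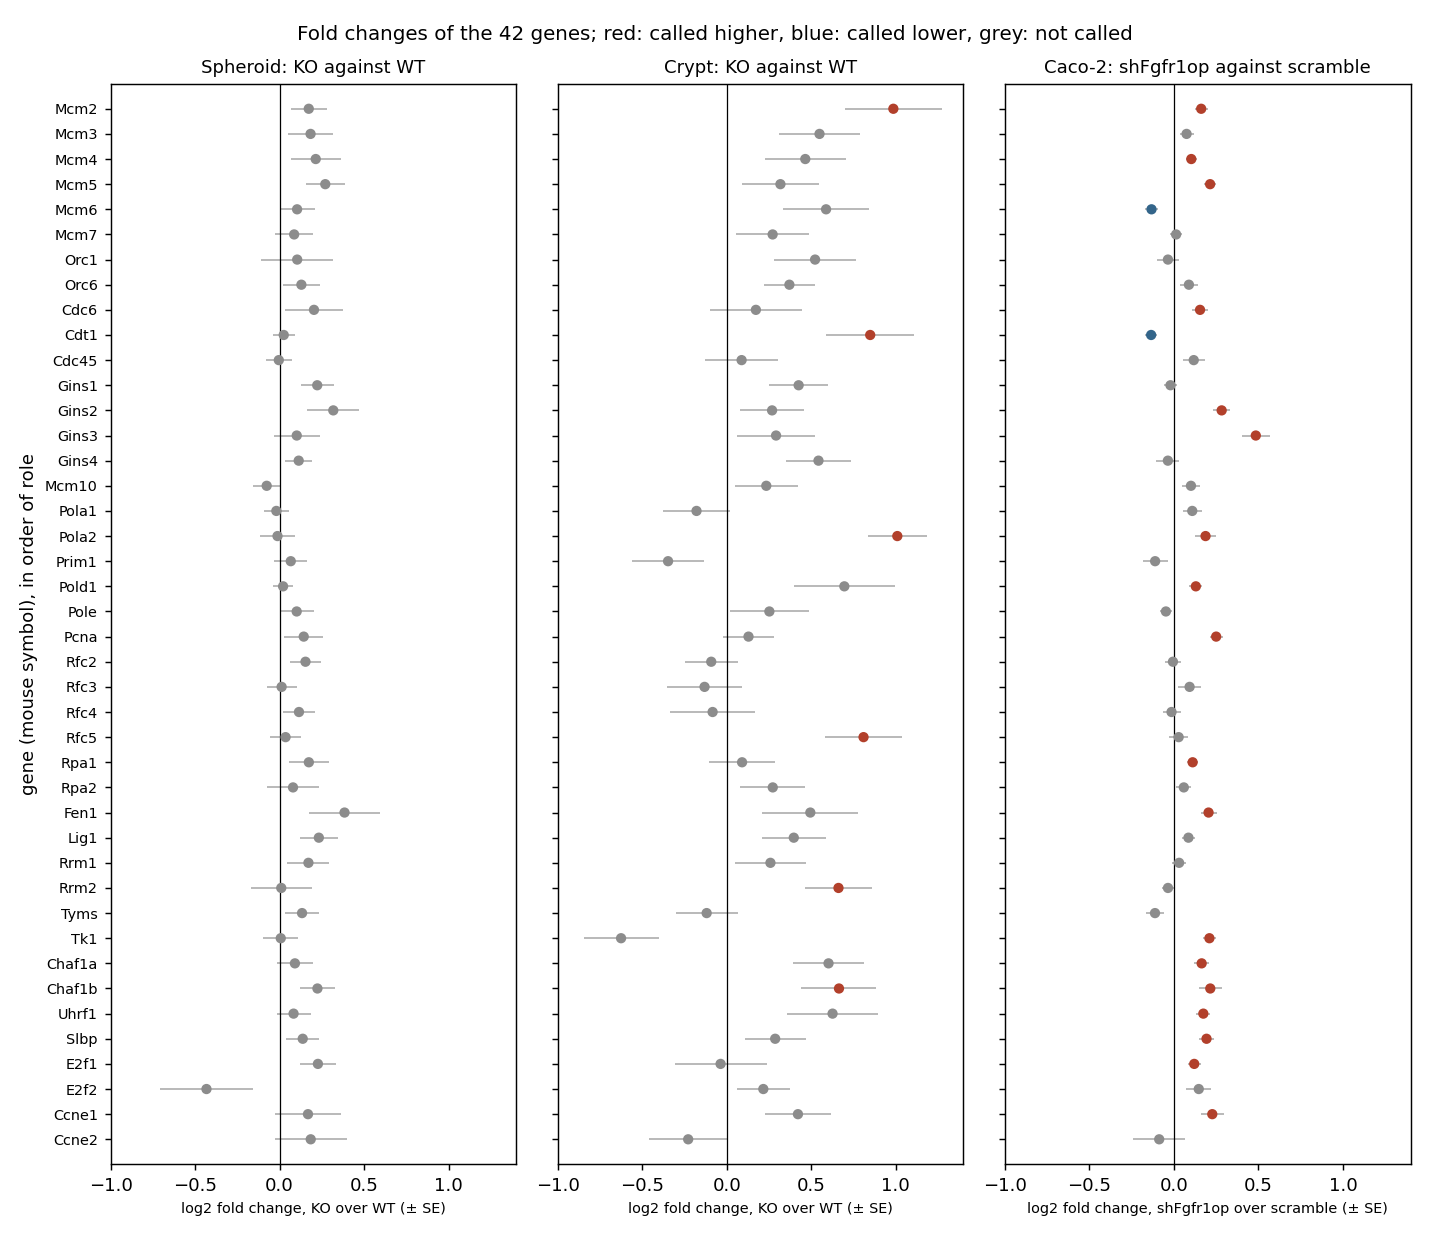
Log2 fold changes of the 42 genes with their standard errors, in order of role, for KO over WT spheroids, KO over WT crypts and shFgfr1op over scramble Caco-2 cells. Red points were called higher and blue points lower: 0 in spheroids, 6 higher in crypts, and 18 higher and 2 lower in Caco-2.

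In crypts, 6 of the 42 genes were called, and all 6 were higher in KO (14.3% of the 42). Over all 16413 genes tested, 14% were called higher, 10.5% lower and 24.5% in either direction, so the share of the 42 called higher was close to that of all genes. The 6 were Pola2, Rfc5, Mcm2, Rrm2, Cdt1 and Chaf1b, with fitted levels 58.1% (Rrm2) to 101% (Pola2) higher in KO. The median log2 fold change of the 42 was 0.29, against 0.05 over all genes, and 33 of the 42 were above 0 (78.6%, against 54% of all genes). At an unadjusted p below 0.05 there were 17 of 42, against 38.1% of all genes. In these bulk samples a larger share of dividing cells and more RNA per cell cannot be told apart.

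Pola2, the second subunit of the polymerase alpha and primase complex, had a lowest, median and highest level of 16.8, 23.8 and 30.0 CPM in KO crypts, against 9.25, 12.3 and 13.0 CPM in WT crypts. Every KO library was above every WT library, and the 3 KO libraries that stand apart were the highest of the 12. The log2 fold change was 1.01 ± 0.18 (edgeR adjusted p = 0.00265). Mcm2, a subunit of the replicative helicase, had a lowest, median and highest level of 54.2, 70.5 and 98.0 CPM in KO crypts, against 17.5, 35.6 and 60.1 CPM in WT crypts. Its groups overlapped only through WT 2, which lay above the lowest KO library (log2 fold change 0.99 ± 0.29, adjusted p = 0.0239). Cdt1, the licensing factor that loads the helicase, had a lowest, median and highest level of 6.65, 7.95 and 18.1 CPM in KO crypts, against 3.52, 5.62 and 6.58 CPM in WT crypts. The groups did not overlap, and KO 1 lay far above the other 5 KO libraries, which reached 8.85 CPM at most (log2 fold change 0.85 ± 0.26, adjusted p = 0.0299). Pola2 and Cdt1 were the members with no overlap between the groups, 2 of 42 (both higher), against 4.9% of all genes without overlap and higher in KO (and 5.71% without overlap and lower, where no member was).

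Rfc5, a subunit of the clamp loader, had a lowest, median and highest level of 8.35, 10.8 and 18.5 CPM in KO crypts, against 5.22, 6.15 and 10.9 CPM in WT crypts. The WT library 2 lay inside the KO range (log2 fold change 0.81 ± 0.23, adjusted p = 0.0197). Its reads are uncertain, since 10.7% of its exon bases overlap Wsb2 on the other strand and a pseudogene is 96.2% identical over 1020 aligned bases. Rrm2, the subunit that limits ribonucleotide reductase and with it the supply of deoxynucleotides, had a lowest, median and highest level of 157, 197 and 240.0 CPM in KO crypts, against 75.3, 129 and 161 CPM in WT crypts. The highest WT libraries reached just past the lowest KO libraries (log2 fold change 0.66 ± 0.20, adjusted p = 0.0281). A pseudogene is 95.5% identical to Rrm2 over 419 aligned bases and may share reads with it. Chaf1b, a subunit of the chromatin assembly factor that places histones behind the fork, had a lowest, median and highest level of 38.4, 51.2 and 60.9 CPM in KO crypts, against 19.5, 30.1 and 45.3 CPM in WT crypts. WT 2 and WT 6 lay within the KO range (log2 fold change 0.66 ± 0.22, adjusted p = 0.042).

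**Figure D2:**
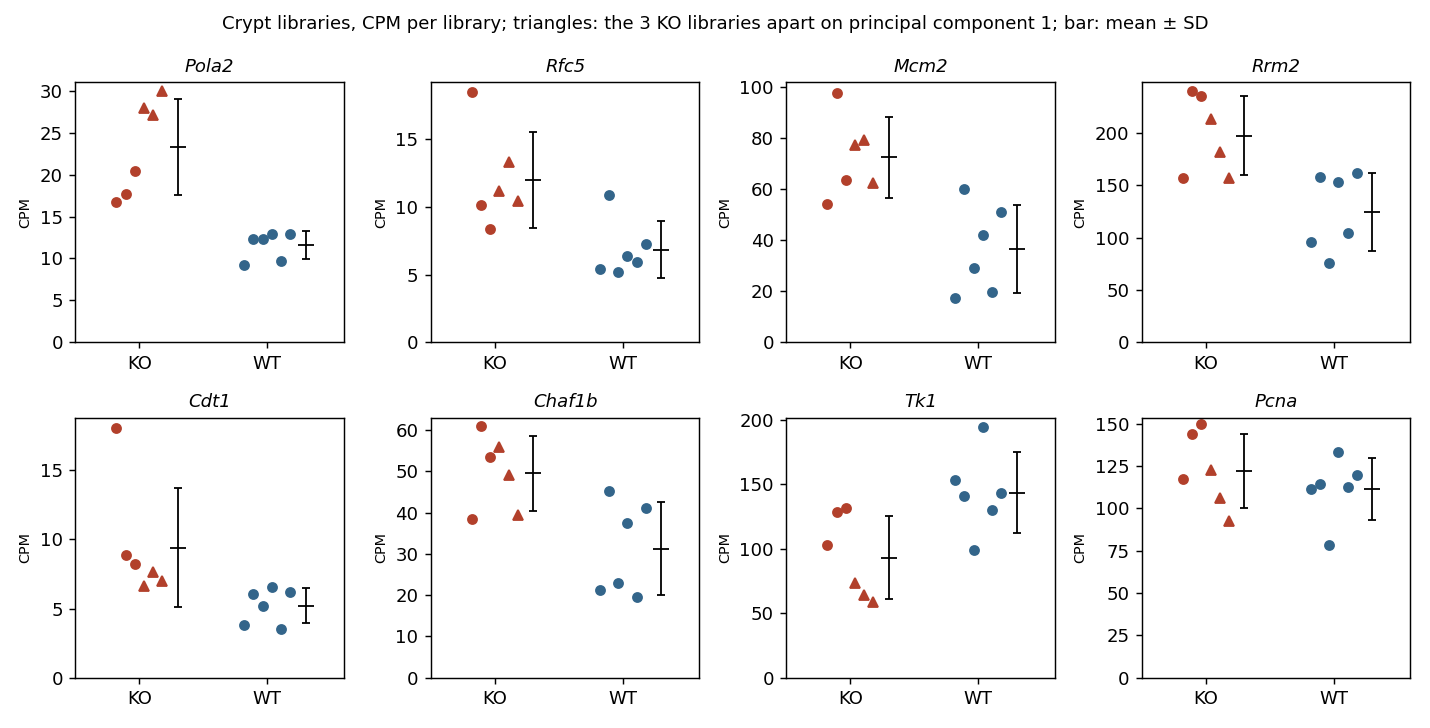
CPM in each crypt library, KO left of WT, for the 6 genes called in crypts and for Tk1 and Pcna, with the mean and SD beside the points. Triangles are the 3 KO libraries that stand apart: they are the highest for Pola2 and the lowest for Tk1.

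The other helicase subunits had fold changes above 0 and were not called. Mcm3 had a lowest, median and highest level of 112, 176 and 247 CPM in KO crypts, against 72.9, 124 and 169 CPM in WT crypts (log2 fold change 0.55 ± 0.24, adjusted p = 0.103). Mcm4 had a lowest, median and highest level of 77.2, 132 and 163 CPM in KO crypts, against 50.2, 95.2 and 127 CPM in WT crypts (0.46 ± 0.24 on the log2 scale, adjusted p = 0.167). Mcm6 had a lowest, median and highest level of 29.1, 36.9 and 58.5 CPM in KO crypts, against 16.4, 25.7 and 43.3 CPM in WT crypts (0.59 ± 0.25, adjusted p = 0.102). For these 3 genes the KO and WT ranges overlapped, with the highest library in KO and the lowest in WT. Mcm5 had a lowest, median and highest level of 123, 174 and 283 CPM in KO crypts, against 95.1, 158 and 211 CPM in WT crypts (0.32 ± 0.23, adjusted p = 0.321). Mcm7, which has a pseudogene 97.7% identical to it, had a lowest, median and highest level of 135, 178 and 269.5 CPM in KO crypts, against 92.0, 164 and 222 CPM in WT crypts (0.27 ± 0.22, adjusted p = 0.374). Thus 1 of 6 helicase genes was called, and their summed level ran from 559.9 to 1102 CPM in KO and from 367 to 787 CPM in WT crypts. Pcna, the sliding clamp, had a lowest, median and highest level of 92.4, 120.0 and 149.9 CPM in KO crypts, against 78.2, 114 and 134 CPM in WT crypts (log2 fold change 0.13 ± 0.15, adjusted p = 0.562). Its KO and WT ranges overlapped over most of their length. A pseudogene 99.2% identical to Pcna may share reads with it.

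The remaining groups had 1 call at most. All 4 licensing genes had fold changes above 0, with only Cdt1 called. None of the 6 helicase activation genes was called, with log2 fold changes of 0.09 to 0.54, largest in Gins4 (adjusted p = 0.0551). Of the 4 genes for chromatin and histone mRNA, Chaf1b alone was called. Its partner Chaf1a had a log2 fold change of 0.60 ± 0.21 (adjusted p = 0.0503), but 52.5% of its exon bases are shared with Ubxn6 on the other strand. Uhrf1, which carries DNA methylation over to the new strand, had 0.63 ± 0.27 (adjusted p = 0.104). A pseudogene is 98.3% identical to Uhrf1 over 1590 aligned bases. Among single-strand binding and Okazaki fragment genes the log2 fold changes ran from 0.09 (Rpa1) to 0.49 (Fen1, with 78.8% of its exon bases shared with an antisense gene).

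Among the polymerases, Pold1, the catalytic subunit of polymerase delta, had 0.70 ± 0.30 (adjusted p = 0.104), Pole of polymerase epsilon 0.25 ± 0.23 and Pola1 of polymerase alpha -0.18 ± 0.20. Rrm1, Slbp and E2f2 were at 0.26 ± 0.21, 0.29 ± 0.18 and 0.22 ± 0.16.

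In all, 9 genes lay below 0. Tk1, the thymidine kinase of the salvage pathway, had a lowest, median and highest level of 58.6, 87.8 and 132 CPM in KO crypts, against 98.6, 142 and 195 CPM in WT crypts. Its 3 lowest values were the 3 KO libraries that stand apart (log2 fold change -0.62 ± 0.22, adjusted p = 0.0533). It was called lower with DESeq2, with RLE size factors, with the filter of 1 CPM, with voom, and without KO 2, KO 3 or WT 3, and its log2 fold change was -0.25 without those 3 libraries. Prim1, the catalytic primase subunit, had a log2 fold change of -0.35 ± 0.21 (adjusted p = 0.242), and was called lower with voom. Ccne2, a cyclin E that drives G1/S, had -0.23 ± 0.23, and its paralogue Ccne1 0.42 ± 0.20 (adjusted p = 0.497 and 0.128). E2f1, the E2F activator, averaged 3.83 ± 1.45 CPM in KO and 3.93 ± 1.36 CPM in WT crypts (SD, n = 6 each). Tyms, which makes thymidylate, was at -0.12 ± 0.18. Rfc2, Rfc3 and Rfc4, the other clamp loader subunits listed, were at -0.13 to -0.08 while Rfc5 was at 0.81.

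The calls in crypts rest on few libraries. Without the 3 KO libraries that stand apart, a setting chosen after seeing the data, 1 gene was called (Cdt1, log2 fold change 1.17, adjusted p = 0.0264), against 5.46% of all genes (2.72% higher and 2.74% lower). The median of the 42 was then 0.46 and 39 were above 0. The 5 lost calls kept their direction, with log2 fold changes of 0.66 (Pola2, adjusted p = 0.0505), 0.85 (Rfc5), 0.98 (Mcm2), 0.76 (Rrm2) and 0.71 (Chaf1b). Leaving out WT 5 left 1 of the 6 calls (Pola2), leaving out WT 1 left 3 (Pola2, Rfc5 and Mcm2) and leaving out WT 3 left 2 (Pola2 and Rfc5), with Tk1 called lower in addition. WT 3 was the lowest of the 12 libraries for 17 of the 42 genes, WT 1 for 9 and WT 5 for 7, and KO 2 was the highest for 24. The summed level of the 42 was 2251 to 3682 CPM in KO and 1602 to 3018 CPM in WT crypts.

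**Figure D3:**
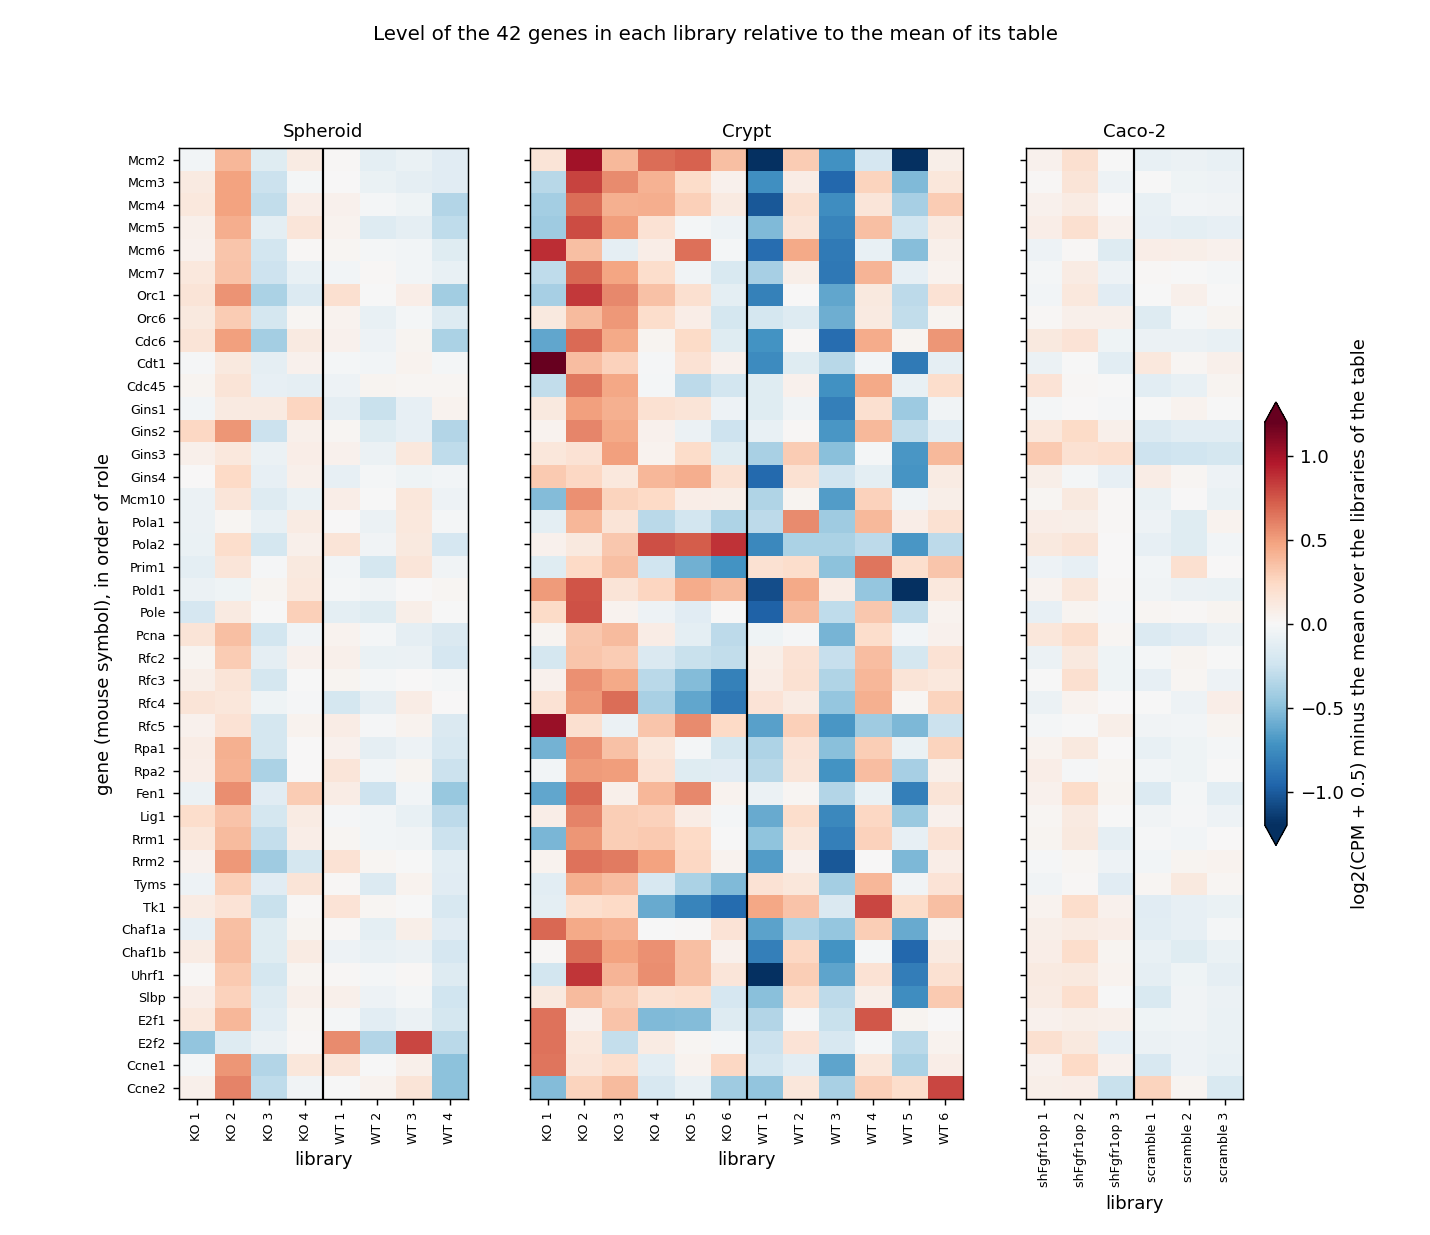
Level of each of the 42 genes in each library, as log2(CPM + 0.5) minus the mean of the gene over the libraries of its table, with KO or shFgfr1op left of the black line. In spheroids KO 2 is above the mean for most genes, and in crypts WT 1, WT 3 and WT 5 are below it for most genes.

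Cell type markers were counted in the same crypt comparison, where 14% of all genes were called higher and 10.5% lower. Most of the markers were not called. Of the enterocyte markers 2 of 12 were called lower in KO (Sis and Slc5a1), and all 12 had fold changes below 0. Their summed level was 4933 to 36346 CPM in KO and 17580 to 44725 CPM in WT. Paneth cell markers had 0 of 8 called, with sums of 15418 to 50466 CPM in KO and 41719 to 81636 CPM in WT. Tuft cell markers had 4 of 6 tested called lower. Stem cell markers had 0 of 8 called, while 3 of the 8 had fold changes above 0 and the median log2 fold change was -0.34. Among them Lgr5 was at -1.35 ± 0.50 on the log2 scale (edgeR adjusted p = 0.0663). The stem cell marker sums were 423 to 1317 CPM in KO and 1121 to 2514 CPM in WT. Goblet cell markers had 1 of 8 called, higher (Spdef), while 2 of the 8 had fold changes above 0, the median log2 fold change was -0.49, and the sums were 5993 to 9167 CPM in KO and 8751 to 13326 CPM in WT. Enteroendocrine cell markers had 0 of 8 called, with sums of 163 to 485 CPM in KO and 280.3 to 551 CPM in WT. Leukocyte and stromal markers had 0 of 14 and 0 of 8 tested called. Summed stem, enterocyte and Paneth marker levels reached their lowest values among the 3 KO libraries that stand apart. The part of these shifts in the replication gene values was not tested.

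In Caco-2, 20 of the 42 genes were called (47.6%, against 31.9% of all 18905 genes tested). Higher with shFgfr1op were 18 (42.9%, against 15.7% of all genes), and lower were 2 (4.76%, against 16.2%). The rises were small, 7.42% to 39.9% with a median of 14.1%, and the 2 falls were 8.75% and 8.89%. The median log2 fold change of the 42 was 0.10, against -0.005 over all genes, and 30 of the 42 were above 0 (71.4%, against 49.1%). At an unadjusted p below 0.05 there were 22 of 42 (52.4%, against 39.8%). Groups did not overlap for 20 genes that were higher and 3 that were lower with shFgfr1op, against 20.8% and 21.5% of all genes in this comparison of 3 against 3.

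PCNA had 183, 193 and 169 CPM in shFgfr1op libraries, against 149, 151 and 158 CPM in scramble libraries (log2 fold change 0.25 ± 0.04, adjusted p = 1.91e-06). The MCM genes went both ways. MCM5 had 174, 188 and 170.3 CPM in shFgfr1op libraries, against 154, 151 and 154 CPM in scramble libraries (log2 fold change 0.21 ± 0.04, adjusted p = 5.00e-06). MCM2 had 298, 330.4 and 287 CPM in shFgfr1op libraries, against 272, 275 and 272 CPM in scramble libraries (log2 fold change 0.16 ± 0.04, adjusted p = 0.00102). For both, all shFgfr1op libraries lay above all scramble libraries, with shFgfr1op 2 the highest. MCM4 had 239, 248 and 233 CPM in shFgfr1op libraries, against 218, 226 and 225 CPM in scramble libraries (log2 fold change 0.10 ± 0.03, adjusted p = 0.012), again with no overlap. MCM6 had 171, 181 and 161 CPM in shFgfr1op libraries, against 189, 188 and 185 CPM in scramble libraries (log2 fold change -0.13 ± 0.04, adjusted p = 0.00353). It was the helicase subunit called lower, and its groups did not overlap. MCM3 had 199, 220.4 and 189 CPM in shFgfr1op libraries, against 197, 191 and 189.6 CPM in scramble libraries (log2 fold change 0.08 ± 0.04, adjusted p = 0.18), and MCM7 had 304, 329 and 295 CPM in shFgfr1op libraries, against 310.1, 307 and 302 CPM in scramble libraries (log2 fold change 0.01 ± 0.03, adjusted p = 0.814). These last 2 were not called.

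Helicase activation genes included the largest change of the 42. GINS3 had 17.3, 15.9 and 16.1 CPM in shFgfr1op libraries, against 11.6, 11.7 and 11.9 CPM in scramble libraries (log2 fold change 0.48 ± 0.08, adjusted p = 6.43e-06). GINS2, in the same complex, had 56.9, 61.4 and 54.6 CPM in shFgfr1op libraries, against 46.5, 47.6 and 47.8 CPM in scramble libraries (log2 fold change 0.28 ± 0.05, adjusted p = 1.09e-05). For both, the lowest shFgfr1op library was above the highest scramble library. The other GINS subunits differed by less than their errors: GINS1 had a log2 fold change of -0.02 ± 0.04 and GINS4 of -0.04 ± 0.07 (adjusted p = 0.769 and 0.751). Among the licensing genes, CDT1 was lower, with 244, 256 and 236 CPM in shFgfr1op libraries, against 280.2, 260.1 and 267 CPM in scramble libraries (log2 fold change -0.13 ± 0.03, adjusted p = 0.00157). CDC6, which works with CDT1 at the origin, was higher, at 82.9 ± 6.36 CPM with shFgfr1op and 74.4 ± 0.668 CPM with scramble (log2 fold change 0.15 ± 0.05, adjusted p = 0.00663). ORC1 and ORC6 were not called.

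Past the helicase, TK1 had 156, 176 and 158 CPM in shFgfr1op libraries, against 138, 142 and 143 CPM in scramble libraries (log2 fold change 0.21 ± 0.04, adjusted p = 2.70e-05). FEN1, the nuclease that trims Okazaki fragments, had 77.9, 87.6 and 77.0 CPM in shFgfr1op libraries, against 67.1, 74.0 and 68.9 CPM in scramble libraries (log2 fold change 0.21 ± 0.05, adjusted p = 0.000666). Both sets of groups were apart, and shFgfr1op 2 was the highest in each. All 4 genes for chromatin and histone mRNA were higher. UHRF1 had 85.6, 86.3 and 81.9 CPM in shFgfr1op libraries, against 73.9, 76.9 and 74.0 CPM in scramble libraries (log2 fold change 0.17 ± 0.04, adjusted p = 0.000803). SLBP, which binds the stem-loop of replication-dependent histone mRNAs, had 91.5, 98.2 and 85.1 CPM in shFgfr1op libraries, against 75.4, 83.0 and 81.5 CPM in scramble libraries (log2 fold change 0.19 ± 0.05, adjusted p = 0.001). CHAF1A had 66.0, 67.3 and 66.6 CPM in shFgfr1op libraries, against 57.4, 58.8 and 62.1 CPM in scramble libraries (log2 fold change 0.16 ± 0.05, adjusted p = 0.00354), and its groups too were apart. CHAF1B was called as well (log2 fold change 0.22 ± 0.07, adjusted p = 0.00996). The remaining 5 calls, all higher, were POLD1, CCNE1, RPA1, E2F1 and POLA2, which had the largest adjusted p of the 20 (0.02). CCNE1 averaged 26.4 ± 2.06 CPM with shFgfr1op and 22.5 ± 1.09 CPM with scramble, and E2F1 91.6 ± 0.565 CPM with shFgfr1op and 84.3 ± 0.971 CPM with scramble (SD, n = 3 each). RRM1, RRM2 and TYMS were not called, nor was any of the 4 clamp loader genes. POLA1, PRIM1, POLE, LIG1, RPA2, CDC45, MCM10, E2F2 and CCNE2 were not called either.

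**Figure D4:**
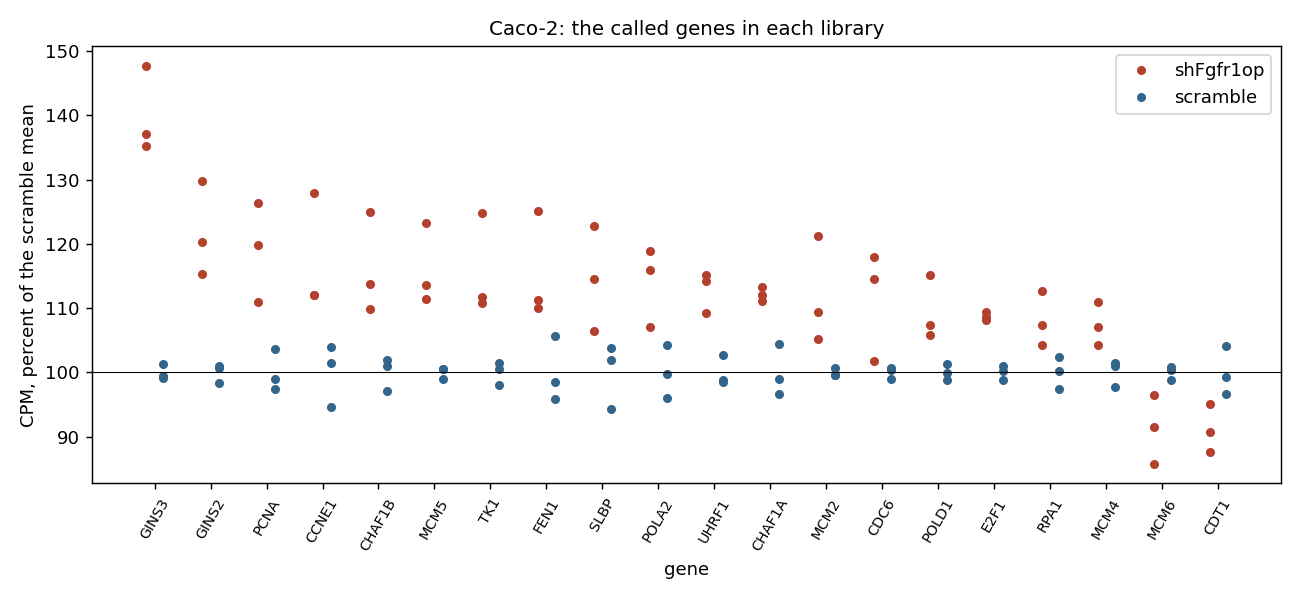
Level of the 20 genes called in Caco-2 in each library, as a percent of the mean of the 3 scramble libraries, in order of fold change. Each shFgfr1op point of the 18 genes on the left lies above the scramble points of that gene, by most in GINS3, and MCM6 and CDT1 on the right lie below them.

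The library shFgfr1op 2 was the highest of the 6 for 26 of the 42 genes. Without it 13 genes were called (11 higher and 2 lower), and without shFgfr1op 3 there were 23. The called genes PCNA, MCM5, MCM2, GINS3, GINS2, TK1, FEN1, UHRF1, SLBP, CHAF1A and CDT1 were called in all 12 alternatives tried, and MCM6 was not called without shFgfr1op 3. Of all genes, 16.2% were called lower and 15.7% higher with shFgfr1op, and the marker counts that follow are read against those shares. With shFgfr1op, 7 of 9 tested enterocyte markers were called lower and 1 higher (sum 1490 to 1615 CPM with shFgfr1op and 2409 to 2448 CPM with scramble). Of the stem cell markers, 5 of 7 tested were higher and 1 was lower, among them LGR5 at 1.48 ± 0.07 on the log2 scale (adjusted p = 5.40e-23), with sums of 552 to 563 CPM with shFgfr1op and 551 to 564 CPM with scramble. Goblet cell markers had 3 of 4 tested lower (sums of 89.3 to 99.7 CPM with shFgfr1op and 170.4 to 174 CPM with scramble), and stromal markers 3 of 6 tested lower and 1 higher (sums of 267 to 270.4 CPM with shFgfr1op and 305 to 319 CPM with scramble). The part of these shifts in the replication gene values was not tested.

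In spheroids, 0 of the 42 genes was called by edgeR, against 0.232% of all 15915 genes (0.189% higher and 0.044% lower). DESeq2 called 0 of the 42 as well, and 566 of the 15316 genes it tested. At an unadjusted edgeR p below 0.05 there were 2 (Mcm5 and Gins1), 4.76% against 14.6% of all genes. The fold changes were small: 37 of 42 were above 0 (88.1%, against 49.6%), with a median of 0.11 on the log2 scale (-0.002 over all genes) and standard errors of 0.06 to 0.27. No gene had groups that did not overlap, against 8.56% of all genes (4.55% higher and 4.02% lower).

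The gene of smallest p was Mcm5, with 151, 197, 134 and 161 CPM in KO spheroids, against 149.9, 131, 135 and 117 CPM in WT spheroids (log2 fold change 0.27 ± 0.12, adjusted p = 0.322). KO 2 was the highest, KO 1 and KO 4 lay just past the top of the WT range, and KO 3 lay inside it. Gins1 had 16.1, 17.9, 17.8 and 19.8 CPM in KO spheroids, against 15.3, 13.7, 15.4 and 17.1 CPM in WT spheroids (0.22 ± 0.10, adjusted p = 0.329). Chaf1b had 32.0, 38.6, 26.8 and 32.0 CPM in KO spheroids, against 28.6, 28.0, 28.3 and 25.9 CPM in WT spheroids (0.22 ± 0.10, adjusted p = 0.347). E2f1 had 30.4, 36.9, 25.5 and 28.3 CPM in KO spheroids, against 27.4, 25.5, 26.5 and 24.0 CPM in WT spheroids (0.23 ± 0.11, adjusted p = 0.37). In Chaf1b and E2f1 the library KO 2 was again the highest and KO 3 was inside the WT range.

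Mcm2, Mcm3 and Mcm4 were not called. Mcm2 had 148, 199, 137 and 161 CPM in KO spheroids, against 152, 139, 143 and 137 CPM in WT spheroids (0.17 ± 0.11, adjusted p = 0.48). Mcm3 had 149, 194, 116 and 137 CPM in KO spheroids, against 139, 131, 129 and 126 CPM in WT spheroids (0.18 ± 0.13, adjusted p = 0.552). Mcm4 had 116, 149, 87.1 and 113 CPM in KO spheroids, against 110.3, 105, 103 and 83.5 CPM in WT spheroids (0.21 ± 0.15, adjusted p = 0.54). KO 2 was the highest of the 8 libraries in each of these, and KO 3 the lowest KO library. Mcm6 had 173, 211, 143 and 169 CPM in KO spheroids, against 169, 164, 164 and 151 CPM in WT spheroids (0.10 ± 0.10, adjusted p = 0.675). Mcm7 had 197, 229, 152 and 169 CPM in KO spheroids, against 176, 181, 176 and 169.5 CPM in WT spheroids (0.09 ± 0.11, adjusted p = 0.756). Pcna had 179.5, 207, 138 and 156 CPM in KO spheroids, against 166, 158, 149 and 143 CPM in WT spheroids (0.14 ± 0.11, adjusted p = 0.593). In Mcm6, Mcm7 and Pcna the KO values spread around the WT values on both sides.

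Across the 42 genes KO 2 was the highest of the 8 spheroid libraries for 34, and KO 3 the lowest for 20. Their summed level was 2833, 3420, 2383 and 2800 CPM in KO 1 to 4, and 2787, 2624, 2700 and 2431 CPM in WT 1 to 4. Without KO 2 the median log2 fold change was 0.04 and 24 of 42 were above 0, and without KO 3 it was 0.20 with 40 above 0. The widest fold change below 0 was that of E2f2, an E2F activator, with 14.6, 18.3, 19.4 and 20.5 CPM in KO spheroids, against 30.3, 15.8, 35.8 and 16.2 CPM in WT spheroids (-0.43 ± 0.27, adjusted p = 0.507), where WT 1 and WT 3 were high and WT 2 and WT 4 were in the KO range. Pola2 had 52.8, 64.7, 48.3 and 58.3 CPM in KO spheroids, against 62.4, 54.5, 60.7 and 48.5 CPM in WT spheroids (-0.01 ± 0.11). Of the marker lists, 0 genes were called in spheroids.

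**Figure D5:**
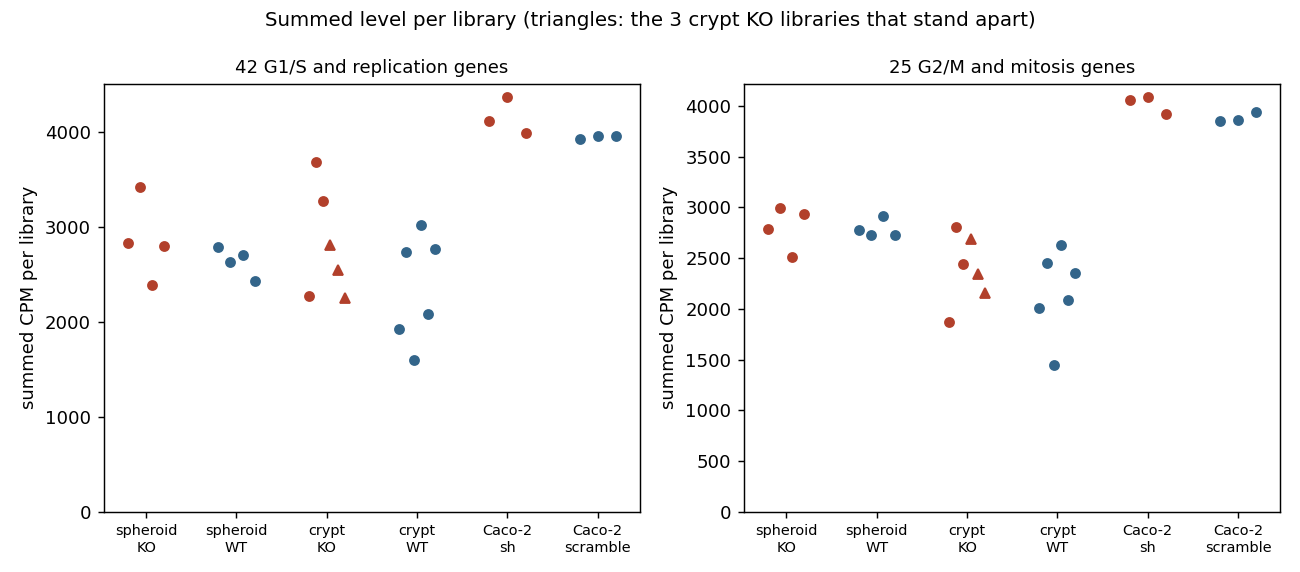
Summed CPM per library of the 42 genes (left) and of 25 G2/M and mitosis genes (right), KO or shFgfr1op left of WT or scramble. For the 42 genes, spheroid KO 2 is above the other 7 spheroid libraries, the crypt groups overlap, and the 3 shFgfr1op libraries, at 3987 to 4368 CPM, are above the 3 scramble libraries, at 3921 to 3956 CPM.

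The difference of the KO effects, crypt minus spheroid, was tested in 1 model over the 20 mouse libraries. It was called for 1 of the 42 genes, Pola2 (difference 0.97 ± 0.24 on the log2 scale, edgeR adjusted p = 0.0358), against 2.86% of all 18485 genes tested (1.76% with a higher and 1.1% with a lower effect in crypts). The call was lost without each spheroid library in turn and without the 3 crypt libraries that stand apart, with edgeR adjusted p up to 0.171. The difference was 0.62 to 1.05 over all 13 alternatives, none of which left out a single crypt library. The differences next in p were Rfc5 at 0.72 ± 0.29, Cdt1 at 0.77 ± 0.33 and Tk1 at -0.68 ± 0.30, with adjusted p of 0.162, 0.182 and 0.198. For the other 41 genes a different effect of KO in crypts and in spheroids was not shown by edgeR. With voom, Prim1 and Tk1 were called as well, both with a lower effect in crypts. The spheroid and crypt counts come from separate tables, and other differences between the tables cannot be told apart from the system.

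Calls in both crypts and Caco-2 numbered 4, which is 66.7% of the 6 called in crypts and 20% of the 20 called in Caco-2. Of all 42 genes, 47.6% were called in Caco-2, so the shared count is read against that share. MCM2, CHAF1B and POLA2 were higher in both KO crypts and shFgfr1op cells. CDT1 was higher in KO crypts and lower in shFgfr1op cells. The fold changes differ in size: Mcm2 was at 0.99 ± 0.29 in crypts and 0.16 ± 0.04 in Caco-2 (log2), with no test of that difference across species.

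Levels per kilobase of exon give an order among the mouse genes. The length is that of all annotated exons of a gene merged, and the order depends on it. It was 8854 bases in Chaf1a, 4669 in Rfc5 and 1533 in Rfc4. Some of these levels are uncertain, since exon bases are shared with genes on the other strand. The share is 78.8% in Fen1, 67.3% in Gins2, 52.5% in Chaf1a and 17.4% in Ccne2. It is 15.1% in Rfc2, 12.7% in Rfc4, 10.8% in Orc1 and 10.7% in Rfc5, and smaller in the other genes with such an overlap. In spheroids Pcna was the highest, at 70.9 CPM per kilobase in KO and 64.2 in WT, followed by Mcm7 (42.2 in KO and 39.7 in WT) and Uhrf1 (41.4 in KO and 39.1 in WT). The lowest were Gins3, at 1.99 in KO and 1.86 in WT, and Fen1, at 1.79 in KO and 1.37 in WT. In crypts Rfc4 (44.6 in KO and 47.2 in WT), Pcna (50.9 in KO and 46.5 in WT) and Rrm2 (71.2 in KO and 45.0 in WT) were the highest in WT, while in KO Mcm5 (47.8) and Mcm3 (47.4) were also above Rfc4, and Chaf1a was the lowest (0.876 in KO and 0.577 in WT). Some genes called in crypts were low there: Cdt1 had a mean of 5.22 ± 1.29 CPM in WT crypts and 98.4 ± 2.37 CPM in WT spheroids, and Rfc5 had 6.84 ± 2.10 CPM in WT crypts and 54.0 ± 4.12 CPM in WT spheroids (SD, n = 6 and 4). These levels come from tables scaled separately and were not tested against each other. Rfc5 was at 2.57 CPM per kilobase in KO and 1.46 in WT crypts, far below its partner Rfc4.

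Other genes of the same steps were counted from fixed lists. Of 30 other G1/S regulators, 5 were called higher and 1 lower in KO crypts (against 14% and 10.5% of all genes). E2f6, a repressive E2F, had 5.37 ± 1.76 CPM in KO libraries, against 2.48 ± 0.561 CPM in WT libraries, log2 fold change 1.12 ± 0.24, adjusted p = 0.00607. Cdkn1a, the p21 inhibitor of cyclin-dependent kinases, had 228 ± 33.4 CPM in KO libraries, against 129 ± 35.2 CPM in WT libraries, log2 fold change 0.82 ± 0.18, adjusted p = 0.00732. Cdkn2d, an inhibitor of Cdk4 and Cdk6, had 9.02 ± 3.25 CPM in KO libraries, against 17.2 ± 5.20 CPM in WT libraries, log2 fold change -0.93 ± 0.26, adjusted p = 0.021. For Cdkn1a every KO library was above every WT library. In Caco-2, 13 of the 30 were called higher and 2 lower with shFgfr1op (against 15.7% and 16.2% of all genes). CCND1, a D-type cyclin, had 268 ± 7.60 CPM in shFgfr1op libraries, against 199 ± 4.02 CPM in scramble libraries, log2 fold change 0.43 ± 0.03, adjusted p = 6.03e-15. CCND3, another, had 38.2 ± 3.20 CPM in shFgfr1op libraries, against 53.2 ± 1.44 CPM in scramble libraries, log2 fold change -0.48 ± 0.05, adjusted p = 7.88e-10, and MYC had 44.2 ± 3.03 CPM in shFgfr1op libraries, against 60.4 ± 1.58 CPM in scramble libraries, log2 fold change -0.45 ± 0.05, adjusted p = 6.99e-10. These 3 had no overlap between groups. In spheroids 0 of 30 were called, and Rb1, the retinoblastoma protein gene, had the smallest p (44.0 ± 7.58 CPM in KO libraries, against 57.4 ± 3.57 CPM in WT libraries, log2 fold change -0.38 ± 0.11, adjusted p = 0.18). The medians of this list were 0.11 in crypts, 0.07 in Caco-2 and -0.02 in spheroids.

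Of 45 other replication fork and S phase genes, 8 were called higher and 1 lower in KO crypts (against 14% and 10.5% of all genes). Orc3, a subunit of the origin recognition complex, had 34.4 ± 7.07 CPM in KO libraries, against 54.0 ± 6.81 CPM in WT libraries, log2 fold change -0.65 ± 0.14, adjusted p = 0.00715. Mcm9, a helicase related to the Mcm2 to Mcm7 subunits, had 6.63 ± 2.86 CPM in KO libraries, against 3.09 ± 0.475 CPM in WT libraries, log2 fold change 1.10 ± 0.28, adjusted p = 0.0127. In Caco-2, 12 of the 45 were called higher and 5 lower (against 15.7% and 16.2% of all genes). RNASEH2C, a subunit of ribonuclease H2, had 50.5 ± 4.11 CPM in shFgfr1op libraries, against 37.2 ± 2.00 CPM in scramble libraries, log2 fold change 0.44 ± 0.06, adjusted p = 2.55e-08, and DUT, the dUTPase, had 42.9 ± 1.44 CPM in shFgfr1op libraries, against 33.6 ± 2.61 CPM in scramble libraries, log2 fold change 0.35 ± 0.06, adjusted p = 3.18e-06. In spheroids 0 of 45 were called, with Orc3 first by p (34.4 ± 2.33 CPM in KO libraries, against 40.4 ± 0.777 CPM in WT libraries, log2 fold change -0.23 ± 0.07, adjusted p = 0.169). Orc3 was thus lower by value in KO in both mouse systems, and was called in crypts. The medians of this list were 0.20 in crypts, 0.07 in Caco-2 and 0.09 in spheroids.

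Of 25 G2/M and mitosis genes, 4 were called higher and 1 lower in KO crypts (against 14% and 10.5% of all genes). Cdc20, the activator of the anaphase-promoting complex, had 36.0 ± 6.27 CPM in KO libraries, against 18.5 ± 6.24 CPM in WT libraries, log2 fold change 0.96 ± 0.21, adjusted p = 0.00715. Plk1, a mitotic kinase, had 109 ± 24.7 CPM in KO libraries, against 58.1 ± 20.1 CPM in WT libraries, log2 fold change 0.90 ± 0.23, adjusted p = 0.0143, and Ube2c, a ubiquitin-conjugating enzyme of mitotic exit, had 120.0 ± 11.5 CPM in KO libraries, against 82.1 ± 17.1 CPM in WT libraries, log2 fold change 0.55 ± 0.15, adjusted p = 0.0165. In Caco-2, 7 of the 25 were called higher and 1 lower (against 15.7% and 16.2% of all genes). ANLN had 143 ± 7.12 CPM in shFgfr1op libraries, against 117 ± 2.49 CPM in scramble libraries, log2 fold change 0.30 ± 0.04, adjusted p = 1.41e-08. CDC20 had 171 ± 5.28 CPM in shFgfr1op libraries, against 145 ± 2.68 CPM in scramble libraries, log2 fold change 0.24 ± 0.03, adjusted p = 3.90e-07, and ECT2, which acts in cytokinesis, had 98.4 ± 4.16 CPM in shFgfr1op libraries, against 83.7 ± 1.15 CPM in scramble libraries, log2 fold change 0.23 ± 0.04, adjusted p = 8.31e-06. In spheroids 0 of 25 were called, and Kif23 had the smallest p (94.0 ± 3.87 CPM in KO libraries, against 105 ± 3.64 CPM in WT libraries, log2 fold change -0.15 ± 0.06, adjusted p = 0.273). The medians of this list were 0.14 in crypts, 0.06 in Caco-2 and -0.02 in spheroids, beside 0.29, 0.10 and 0.11 for the 42 genes.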

How the data were processed

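RNA sequencing reads were counted per gene by the authors, who deposited 1 table of whole-number counts for spheroids, for crypts and for Caco-2. The tools named in the submitters' processing notes are STAR and DESeq2, without versions, and the build is mm10. The labels give mm10 for Caco-2 too, but that table holds human identifiers, so for it no build is known. Strand and multimapping rules are likewise not given in the sources used here. Columns were matched by title in spheroids, by genotype in crypts and, in Caco-2, by the last digits of the hairpins' catalogue numbers. Rows that repeat an identifier (276 in each mouse table, 116 in Caco-2) were removed. Each table was fitted with edgeR 4.0.16 in R 4.3.3 (filterByExpr, TMM, robust quasi-likelihood F test, Benjamini-Hochberg over all genes, threshold 0.05), without a replicate block. Standard errors are the log2 fold change divided by the square root of F. The code was tested on simulated counts. Replicates differed beyond sampling noise (chi-square per degree of freedom at least 3.98).

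The genes and lists were chosen with earlier results of these data known. All 42 genes may be named. Given in full are the called ones (at most 12 of smallest p, or the 4 of smallest p where fewer than 4 were called), Mcm2 to Mcm7 and Pcna, and, of each other list, the 3 called genes of smallest p or 1 where none was called. Some genes that this rule names are not reported here. The cell type markers named (Sis, Slc5a1, Lgr5, Spdef) were picked after their values were seen.

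Alternatives were RLE size factors, no filter, at least 1 CPM, limma voom (3.58.1) with quality weights, DESeq2 1.42.0, a replicate block, each library left out and, chosen after seeing the data, leaving out the 3 crypt KO libraries that stand apart or the 2 crypt libraries with almost no Xist. For the difference of KO effects, single libraries were left out among the spheroids only. Exon lengths and overlaps come from GENCODE M21 and promoters from RefSeq. Similar transcripts were sought at 95% identity over 300 bases. No human sequence was used here. Deviations of same-numbered libraries were only weakly correlated, and the numbers were not taken as pairs.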

Additional observations from a re-analysis of the deposited data

Results flagged for a closer look

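The KO effect on Pola2 was larger in crypts than in spheroids, by 0.97 ± 0.24 on the log2 scale (edgeR adjusted p = 0.0358, tested in 1 model). All 6 KO crypt libraries were above all 6 WT crypt libraries, and the KO and WT spheroids overlapped. The call was lost without any 1 of the 8 spheroid libraries and without the 3 crypt KO libraries that stand apart. The difference was 0.62 to 1.05 over all 13 alternatives, none of which left out a single crypt library. Some libraries were flagged as outlying within their group, in a check of 172 groups. Chance alone flags a group about 1 in 20 times, so flags like these can arise by chance. Cdt1 was at 18.1 CPM in KO crypt 1, against 6.65 to 8.85 CPM in the other KO crypts. E2f2 was at 53.0 CPM in the same library, against 27.5 to 36.8 CPM. Pole was at 23.8 CPM in KO crypt 2, against 12.5 to 16.3 CPM in the other KO crypts. Rfc5 was at 10.9 CPM in WT crypt 2, against 5.22 to 7.26 CPM in the other WT crypts. E2f1 was at 6.58 CPM in WT crypt 4, against 2.81 to 3.81 CPM. Cdc45 was at 27.8 CPM in WT spheroid 1, against 29.5 to 29.7 CPM in the other WT spheroids.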

How the results depend on the processing

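No gene that was called changed direction under any alternative run. In spheroids the count of the 42 genes called stayed at 0 in every alternative, and all genes called, 37 in the main analysis, were 154 with no filter, 566 with DESeq2 and 71 with a replicate block, and 3 to 160 with a library left out. In crypts 1 to 9 of the 42 were called with a library left out (2749 to 5005 of all genes) and 1 without the 3 KO libraries that stand apart (924 of all genes). With voom 7 of the 42 were called (7179 of all genes), 5 higher and 2 lower. Without the 2 libraries with almost no Xist 4 of the 42 were called (1889 of all genes). The calls of Cdt1 and Rfc5 were then lost, and the median log2 fold change of the 42 was 0.43. In Caco-2 13 to 23 of the 42 were called with a library left out (5162 to 5697 of all genes). The median log2 fold change of the 42 ran from 0.04 to 0.20 in spheroids, 0.19 to 0.38 in crypts and 0.08 to 0.13 in Caco-2 with a library left out. The difference of KO effects was called for 3 of the 42 with voom (4723 of all genes), for 0 with a spheroid library left out (105 to 234 of all genes), for 0 without the 3 libraries (110 of all genes), and for 273 of all genes with no filter. The cause of these shifts was not tested. With the replicate number as a block 0 of the 42 were called in spheroids and 20 in Caco-2 (5904 of all genes). Same-numbered libraries had correlations of deviations from -0.03 to 0.10 in spheroids and 0.003 to 0.04 in Caco-2. In Caco-2 the correlation was best with the same number for replicates 1 and 3, and in spheroids for none. Whether same-numbered libraries share a batch was not tested. No paired analysis was possible in crypts because the columns carry no number from the labels.

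Crypt values pool both days. Strand and multimapping rules are not known, so genes with overlapping or near-identical partners are uncertain, and low genes such as Fen1 and Cdt1 in crypts rest on fewer reads.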
